A study of Mus musculus with 6 samples.

Results

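The Wnt/β-catenin pathway was examined here through 40 genes that encode its ligand, receptors, cytoplasmic proteins and nuclear proteins, among the 52636 genes listed in the expression table. The genes were chosen by name, with the LRP co-receptors left out, and all 40 were found. RNA was measured by RNA sequencing of bone marrow neutrophils from C57BL/6N mice aged 10 weeks, in 3 WT libraries and 3 libraries labelled LRP5-null (genotype LRP5f/f/Lyz2Cre+). The latter carry floxed Lrp5 alleles and a Cre recombinase driven by Lyz2, a gene active in neutrophils, monocytes and macrophages, so that deletion is not limited to neutrophils. The authors deposited TPM, transcript abundances that are corrected for gene length and sum to the same total in every library, so that levels can be set side by side between genes. TPM keeps no read counts, and the error of a value therefore comes only from the spread between libraries. The labels do not say that the replicates came from separate mice, so p-values measure only the spread between these libraries.

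Wnt ligands bind a Frizzled receptor together with LRP5 or LRP6 and recruit Dishevelled. In cells without a Wnt signal, a destruction complex built on Axin and APC holds β-catenin while the kinases CK1α and GSK3 phosphorylate it, and the ubiquitin ligase adaptor β-TrCP then marks it for degradation. When the complex is held back by a signal, β-catenin accumulates, enters the nucleus and acts on genes bound by TCF/LEF factors, together with BCL9 and Pygopus proteins and in place of Groucho/TLE corepressors.

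The residues that the destruction complex reads are encoded in exon 3 of Ctnnb1, the gene of β-catenin. In the stretch of 54 bases below (codons 30 to 47, NCBIM37 chr9:120859714-120859767, plus strand, 5′ to 3′), capitals mark the codons of the 4 phosphorylated residues, serines 33, 37 and 45 and threonine 41. It is shown because it links CK1α, GSK3 and β-TrCP, whose transcripts were all measured here.
Ctnnb1 exon 3: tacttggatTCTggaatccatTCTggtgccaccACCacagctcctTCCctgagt
Axin2 is a widely used reporter of Wnt/β-catenin signaling, and its promoter is shown because its transcript was listed at or near 0 in these libraries. The window holds 250 bases before and 50 bases after the start in RefSeq (GRCm38.p6, chr11:108920099-108920398, plus strand), with CG pairs in capitals.
Axin2 promoter: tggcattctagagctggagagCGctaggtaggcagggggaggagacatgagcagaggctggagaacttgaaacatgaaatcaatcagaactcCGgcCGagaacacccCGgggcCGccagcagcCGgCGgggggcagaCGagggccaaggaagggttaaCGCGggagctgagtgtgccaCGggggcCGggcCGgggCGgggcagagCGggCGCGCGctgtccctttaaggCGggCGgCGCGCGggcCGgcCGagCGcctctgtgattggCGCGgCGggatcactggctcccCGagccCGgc
It holds 31 CG pairs, against a median of 8 for all 27025 genes with such a window. For a gene with several windows, the one with most CG pairs was counted. The 30 members with a window had 45 windows, and all 27025 genes had 32851. The median was 30 for the members with a mean of at least 1 TPM and 24 for those below it. The motif CTTTGAT, a core of TCF/LEF binding sites searched on both strands, was found in the windows of 0 of the 30 members with a window and of 4.29% of all genes with a window, and these letters being absent from a window says nothing of TCF binding elsewhere.

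The libraries were checked against their labels. The 12 neutrophil markers, among them S100a8, Ly6g and Cxcr2, all passed 1 TPM and summed to between 398400 and 447300 TPM per library. Lrp5, the targeted gene, was listed at 1.12, 1.31 and 1.42 TPM in the WT libraries and at 1.68, 1.77 and 2.07 TPM in those labelled LRP5-null, and was thus not lower there (limma adjusted p = 0.136). TPM per gene sums all exons and does not isolate the floxed ones, and every direction below rests on the labels. Lyz2, into which Cre is placed, was 24797 to 26791 TPM in WT against 13360 to 14027 TPM under the LRP5-null label. The co-receptor Lrp6 was 2.30 to 2.52 TPM in WT and 2.35 to 3.09 TPM under the LRP5-null label, with overlap. Total reads ranged from 249841492 to 340580330. WT replicates 1 and 2 stood apart from the other 4 libraries: ribosomal reads made up 1.20% and 1.30% of their reads against 2.69% to 3.30% elsewhere, and relative to the mean of all libraries their GC-rich transcripts were lower (Spearman −0.61 and −0.43 across genes, against 0.33 to 0.44 in the others, WT replicate 3 included).

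Of the 40 members, 26 (65.0%) had a mean of at least 1 TPM, and these were at or above 1 TPM in each of the 6 libraries. The remaining 14 were under 1 TPM in each library, with 0.759 TPM as their highest single value. No member changed sides between the groups. Of the 26, 17 had a mean of at least 10 TPM and 9 lay between 1 and 10 TPM, with a median of 20.1 TPM against 11.8 TPM for all 9775 genes of at least 1 TPM. Of the 14, 6 lay between 0.1 and 1 TPM and 8 below 0.1 TPM, with Fzd2 and Porcn listed at 0 in every library. By role, the expressed members were mostly those of the cytoplasm and the corepressors and coactivators of the nucleus, whereas the 4 TCF/LEF factors, 4 of 5 Frizzled receptors, the ligand Wnt10b and both receptor-removing ubiquitin ligases were below 1 TPM.

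**Figure D1:**
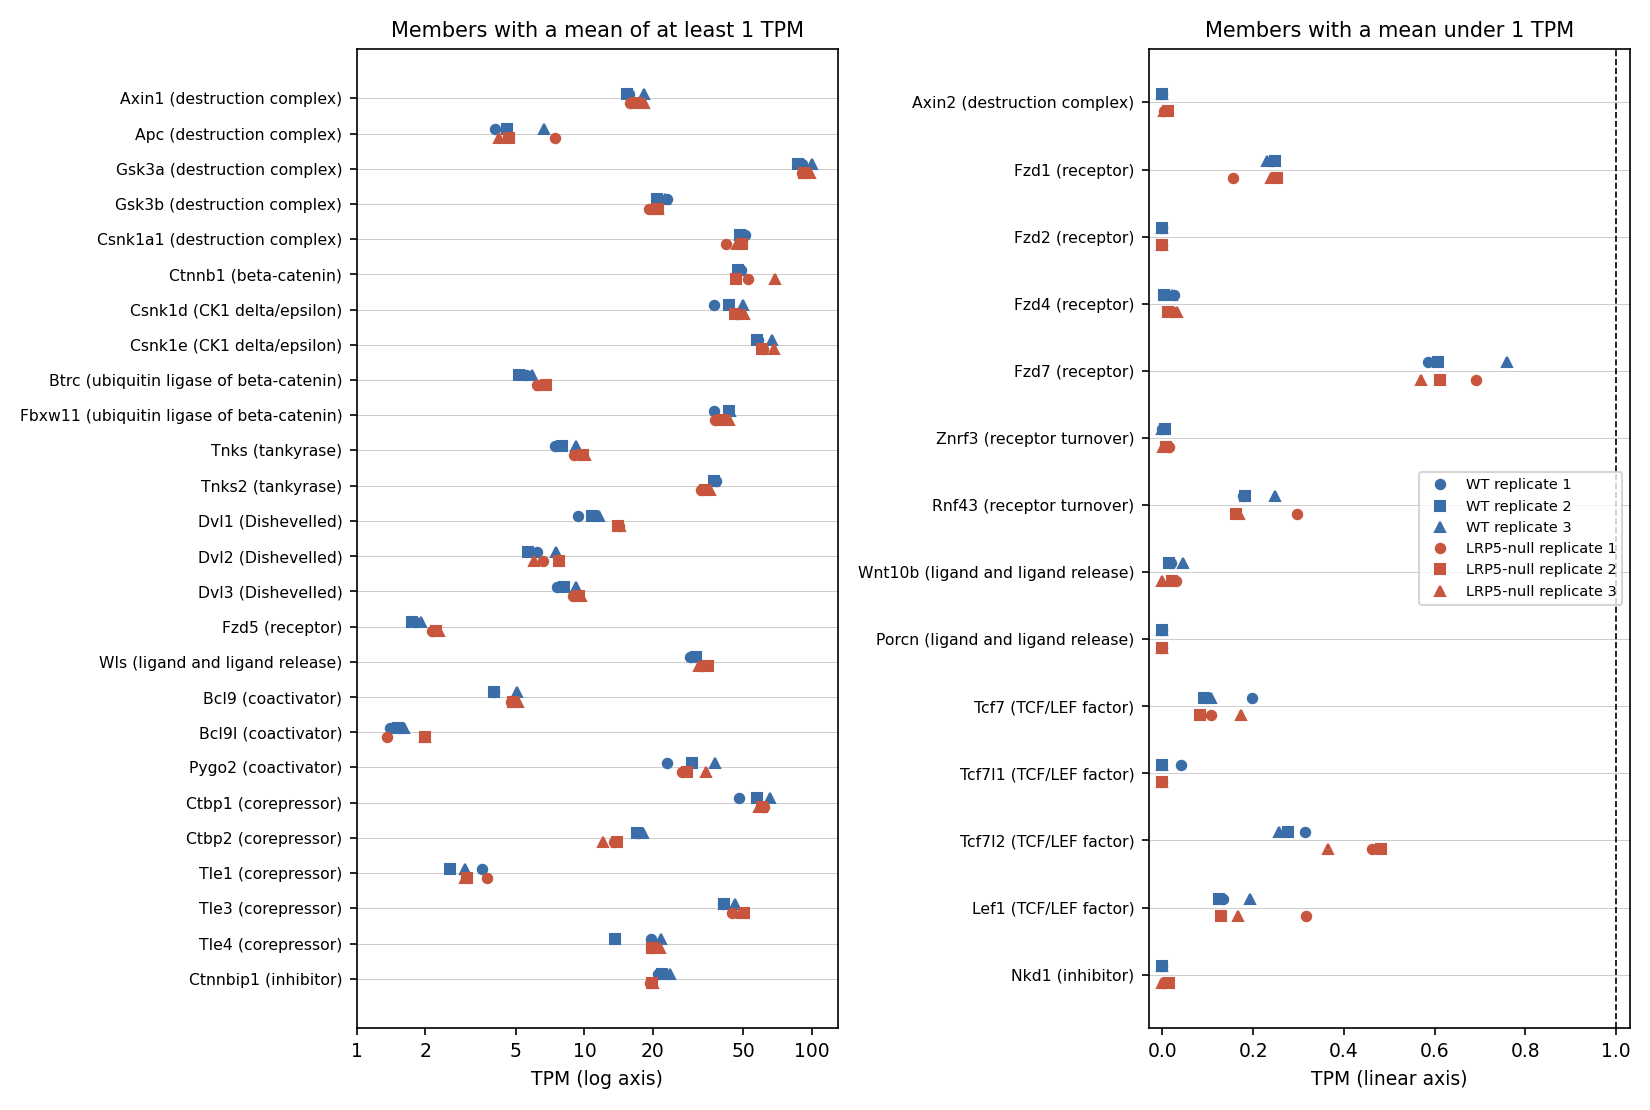
TPM of each member in each of the 6 libraries, on a log axis for the 26 members with a mean of at least 1 TPM (left) and on a linear axis for the 14 below it (right, dashed line at 1 TPM). Blue marks are WT and red marks LRP5-null libraries, with circle, square and triangle for replicates 1, 2 and 3. Gsk3a is the highest member, and no point of the right panel exceeds 0.759 TPM.

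At the start of the pathway, transcripts of ligands and of most receptors were scarce. Wnt10b, a ligand, was at most 0.05 TPM in any library. Of 18 other Wnt ligand genes, 14 were listed at 0 in every library and the highest mean was 0.05 TPM. Porcn, which attaches the lipid that Wnt proteins need for secretion, was listed at 0 in every library. Wls, which carries lipidated Wnt proteins to the cell surface, was in contrast well expressed, at 29.2, 30.8 and 30.9 TPM in WT and 32.9, 34.9 and 31.8 TPM in the libraries labelled LRP5-null. The 3 latter were each above the 3 WT libraries.

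Among the receptors, Fzd5 was the single Frizzled above 1 TPM. It was listed at 1.79, 1.74 and 1.92 TPM in WT and at 2.13, 2.22 and 2.29 TPM in the libraries labelled LRP5-null. The groups did not overlap, and the level was low for an expressed gene, since 86.6% of the genes tested had a mean at or above it. Fzd7 came next, at 0.58, 0.61 and 0.76 TPM in WT and 0.69, 0.61 and 0.57 TPM in the libraries labelled LRP5-null, with overlap. Fzd1 was between 0.15 and 0.25 TPM, and Fzd4 was at most 0.03 TPM. The 5 other Frizzled genes had means of at most 0.01 TPM. Rnf43 and Znrf3, the ubiquitin ligases that clear Frizzled from the membrane, were between 0.16 and 0.30 TPM and at most 0.01 TPM, respectively. Of the R-spondins and their receptors, which oppose these ligases, Lgr4 was the single one of 7 to pass 1 TPM (mean 1.14 TPM, log2 fold change −0.08, limma adjusted p = 0.541). The 12 secreted antagonists of the Dkk, Sfrp and related families were all below 1 TPM, with 11 listed at 0 in every library.

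Dishevelled, which relays the signal from Frizzled, was represented by all 3 genes. Dvl1 was listed at 9.39, 10.8 and 11.6 TPM in WT and at 14.2, 14 and 14.4 TPM in the libraries labelled LRP5-null. Each of the latter was above each WT library, and WT replicate 3 was the nearest to them. Dvl2 was 6.17, 5.68 and 7.49 TPM against 6.57, 7.71 and 5.99 TPM, and these ranges overlapped. Dvl3 was 7.60, 8.14 and 9.15 TPM against 8.91, 9.51 and 9.64 TPM, with WT replicate 3 above the lowest of the libraries labelled LRP5-null.

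In the destruction complex, 5 of 6 members were expressed. Gsk3a was the highest member of the pathway, at 90.4, 86.9 and 99.9 TPM in WT and 90.2, 92.6 and 97.9 TPM in the libraries labelled LRP5-null, and 10.6% of the genes tested were at or above its mean. Its paralog Gsk3b was 23.1, 20.9 and 22.5 TPM against 19.2, 21.0 and 21.0 TPM. Both kinases overlapped between the groups, and Gsk3a made up 79.6% to 82.4% of their summed TPM in the 6 libraries. Csnk1a1, the CK1α kinase that phosphorylates β-catenin first, was 51.0, 48.4 and 48.2 TPM in WT and 41.9, 49.4 and 47.0 TPM in the libraries labelled LRP5-null. Axin1, the scaffold, was 15.7, 15.4 and 18.3 TPM against 15.9, 16.9 and 18.2 TPM. The ranges of these scaffold and kinase transcripts overlapped throughout. Apc was 4.03, 4.55 and 6.62 TPM in WT and 7.42, 4.68 and 4.2 TPM in the libraries labelled LRP5-null, the widest relative spread within a group among the expressed members of the complex. Axin2, the inducible paralog of Axin1, was listed at 0 in the 3 WT libraries and reached at most 0.01 TPM in the others.

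Ctnnb1 itself was listed at 48.9, 47.3 and 49.0 TPM in WT and at 52.4, 46.2 and 68.6 TPM in the libraries labelled LRP5-null. The WT libraries lay close together, whereas LRP5-null replicate 3 was above all others and LRP5-null replicate 2 below all others. The log2 fold change was 0.18 (95% interval −0.13 to 0.50, limma adjusted p = 0.444), and without LRP5-null replicate 3 it was 0.02. Transcript levels do not measure β-catenin protein, whose abundance the pathway sets.

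Of the adaptors that ubiquitinate β-catenin, Fbxw11 was the more abundant, at 37.2, 43.1 and 43.8 TPM in WT and 37.4, 40.4 and 43.0 TPM in the libraries labelled LRP5-null. Btrc was 5.52, 5.17 and 5.90 TPM against 6.18, 6.80 and 6.44 TPM. Its groups did not overlap, while those of Fbxw11 did. The tankyrases, which mark Axin for degradation, were both expressed. Tnks2 was 38.0, 37.1 and 37.3 TPM in WT and 32.5, 33.9 and 35.5 TPM in the libraries labelled LRP5-null, all lower. Tnks was 7.41, 7.95 and 9.20 TPM against 9.01, 9.84 and 10.0 TPM, with WT replicate 3 inside the range of the other group. The CK1 kinases that act on Dishevelled and LRP6 were also abundant. Csnk1d was 37.3, 43.2 and 49.8 TPM against 46.8, 46.1 and 50.5 TPM. Csnk1e was 57.9, 57.6 and 66.7 TPM against 61.0, 60.6 and 68.3 TPM. In both, WT replicate 3 lay inside the range of the libraries labelled LRP5-null and WT replicates 1 and 2 below it.

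In the nucleus, all 4 TCF/LEF genes were below 1 TPM. Tcf7l2 was the highest of them, at 0.31, 0.28 and 0.26 TPM in WT and 0.46, 0.48 and 0.36 TPM in the libraries labelled LRP5-null, without overlap. With no minimum TPM, the groups did not overlap in 9 of 38 members (23.7%) and in 19.6% of all genes. Lef1 was 0.13, 0.13 and 0.19 TPM against 0.32, 0.13 and 0.17 TPM, and LRP5-null replicate 1 stood above the rest. Tcf7 lay between 0.08 and 0.20 TPM, and Tcf7l1 was listed at 0.04 TPM in WT replicate 1 and at 0 in the other libraries. Tcf7 and Lef1 are best known from lymphocytes, and of 16 T and NK cell markers 14 were also below 1 TPM. The sum of these markers was 14.1 to 16.04 TPM in WT and 18.02 to 19.5 TPM under the LRP5-null label. Most of it was Cd3d (10.1 and 13.9 TPM by group mean), while Cd3g and Lck had means of 0.62 and 0.31 TPM. By group mean, Cd3d, Nkg7, Cd4, Ncr1, Trac and Trbc1 were higher under the LRP5-null label. The other markers of this list, Cd3g and Lck included, were lower, Cd2 in each library (0.863 and 0.695 TPM by group mean). The 14 B cell markers summed to 122 to 137 TPM over all libraries, most of it Ighm. In RNA of a cell mixture, a few cells with much of a transcript and many cells with little of it cannot be told apart, and the part of lymphocytes in these low values was not tested.

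The coactivators that join β-catenin to the transcription machinery were expressed. Pygo2, a Pygopus, was 23.2, 29.6 and 37.4 TPM in WT and 26.7, 28.4 and 34.2 TPM in the libraries labelled LRP5-null. Bcl9, which bridges β-catenin and Pygopus, was 4.02, 3.997 and 5.04 TPM against 4.76, 4.87 and 5.10 TPM. Its paralog Bcl9l was 1.39, 1.52 and 1.60 TPM against 1.36, 1.98 and 1.996 TPM. All 3 overlapped between the groups, and Pygo2 differed more among the WT libraries than between the group means.

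The corepressors exceeded the TCF/LEF factors by far in level. Ctbp1 was 47.9, 57.2 and 65.1 TPM in WT and 61.4, 60.6 and 58.6 TPM in the libraries labelled LRP5-null. Ctbp2 was 17.2, 17.02 and 18.2 TPM in WT and 13.5, 13.9 and 12.1 TPM in the libraries labelled LRP5-null. Ctbp1 overlapped between the groups, whereas each library labelled LRP5-null was below each WT library for Ctbp2. Of the Groucho/TLE genes, Tle3 was 40.8, 40.9 and 45.8 TPM against 44.7, 50.05 and 49.2 TPM. Tle4 was 19.6, 13.6 and 21.7 TPM against 19.5, 19.8 and 21.4 TPM, with WT replicate 2 alone below the rest. Tle1 was lowest of the TLE members, at 3.54, 2.57 and 2.996 TPM against 3.72, 3.06 and 2.99 TPM. Ctnnbip1, whose product (ICAT) blocks the binding of β-catenin to TCF, was 21.0, 21.9 and 23.8 TPM in WT and 19.4, 19.8 and 19.9 TPM in the libraries labelled LRP5-null, all lower. Nkd1, an inhibitor that binds Dishevelled and is itself a Wnt target, was at most 0.01 TPM.

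The question of this comparison is whether transcripts of the pathway differ when its co-receptor gene is targeted. The log2(TPM + 1) values, on which differences of low genes appear smaller than they are, were fitted with limma over the 9775 genes of at least 1 TPM. None of the 26 expressed members was called by limma at an adjusted p under 0.05, where 0.532% of all genes tested were called. At an unadjusted p under 0.05 there were 4 members, the higher Dvl1, Btrc and Fzd5 and the lower Ctbp2, where 23.5% of all genes had such a p (14.4% higher and 9.12% lower). The groups did not overlap in 7 of the 26, with Wls, Tnks2 and Ctnnbip1 beside those 4, where 29.7% of all genes did not overlap. In this fit the shares of members were thus near or below those of all genes. The median log2 fold change of the 26 was 0.09 against 0.04 for all genes. Of the 26, 20 were above 0 and 6 below, where 5752 of all 9775 genes were above 0 and 4023 below. For 22 of the 26 the 95% interval of the log2 fold change lay within 0.5 of 0 in both directions. Without WT replicate 3 the calls at an adjusted p under 0.05 were 3 members, namely Tnks, Dvl1 and Ctbp2, when 19.6% of all genes were called. With another library left out there were 0.

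Dvl1 (NCBIM37 chromosome 4, 155221511 to 155233412, plus strand) had the largest positive log2 fold change of the tested members. It was 10.6 ± 1.11 TPM in WT and 14.2 ± 0.193 TPM in the libraries labelled LRP5-null (SD, n = 3 each). Its log2 fold change was 0.40 (standard error 0.089, 95% interval 0.19 to 0.60, limma adjusted p = 0.0892). It was 0.46 without WT replicate 3 (limma adjusted p = 0.0182), where 19.6% of all genes were called. With another library left out, the limma adjusted p ranged from 0.140 (without WT replicate 1) to 0.299 (without LRP5-null replicate 2). It was 0.130 with a replicate block and 0.158 with the ribosomal share as covariate. The log2 fold change was 0.27 against WT replicate 3 alone. Once trends with GC content and length were removed, it was 0.25 (limma adjusted p = 0.0534).

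Ctbp2 (NCBIM37 chromosome 7, 140179246 to 140316037, minus strand) had the largest negative log2 fold change of the tested members. It was 17.5 ± 0.613 TPM in WT and 13.1 ± 0.948 TPM in the libraries labelled LRP5-null (SD, n = 3 each). Its log2 fold change was −0.39 (standard error 0.079, 95% interval −0.57 to −0.20, limma adjusted p = 0.0778). It was −0.44 against WT replicate 3 alone. Without WT replicate 3 it was −0.36 (limma adjusted p = 0.0300), where 19.6% of all genes were called. With the trends removed it was −0.49 (limma adjusted p = 0.0377), where 4.9% of all genes were called. With any other library left out, a replicate block or the ribosomal share as covariate, Ctbp2 was not called. TPM per gene sums the transcripts of Ctbp2, so that a shift between its isoforms cannot be seen.

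The other 5 members without overlap differed less. Fzd5 (NCBIM37 chromosome 1, 64777134 to 64784324, minus strand) was 1.82 ± 0.090 TPM in WT and 2.22 ± 0.081 TPM in the libraries labelled LRP5-null (SD, n = 3 each), and the log2 fold change was 0.19 ± 0.076 (standard error, limma adjusted p = 0.193). With the trends of GC content and length removed its log2 fold change was 0.05. Btrc was 5.53 ± 0.361 and 6.47 ± 0.308 TPM (SD, n = 3 each), a log2 difference of 0.20 with a standard error of 0.080 (limma adjusted p = 0.201), and 0.09 with the trends removed. Ctnnbip1 was 22.3 ± 1.396 and 19.7 ± 0.276 TPM (SD, n = 3 each), a log2 difference of −0.17 with a standard error of 0.073 (limma adjusted p = 0.221). With the trends removed the log2 difference was −0.26 (limma adjusted p = 0.0345), where 4.9% of all genes were called. Tnks2 was 37.5 ± 0.474 and 34.0 ± 1.52 TPM (SD, n = 3 each), a log2 difference of −0.14 with a standard error of 0.067 (limma adjusted p = 0.253). Wls was 30.3 ± 0.955 and 33.2 ± 1.56 TPM (SD, n = 3 each), a log2 difference of 0.13 with a standard error of 0.070 (limma adjusted p = 0.316), and 0.27 with the trends removed. For any 1 of these genes, an exact two-sided permutation test of 3 libraries against 3 could not give a p below 0.1.

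**Figure D2:**
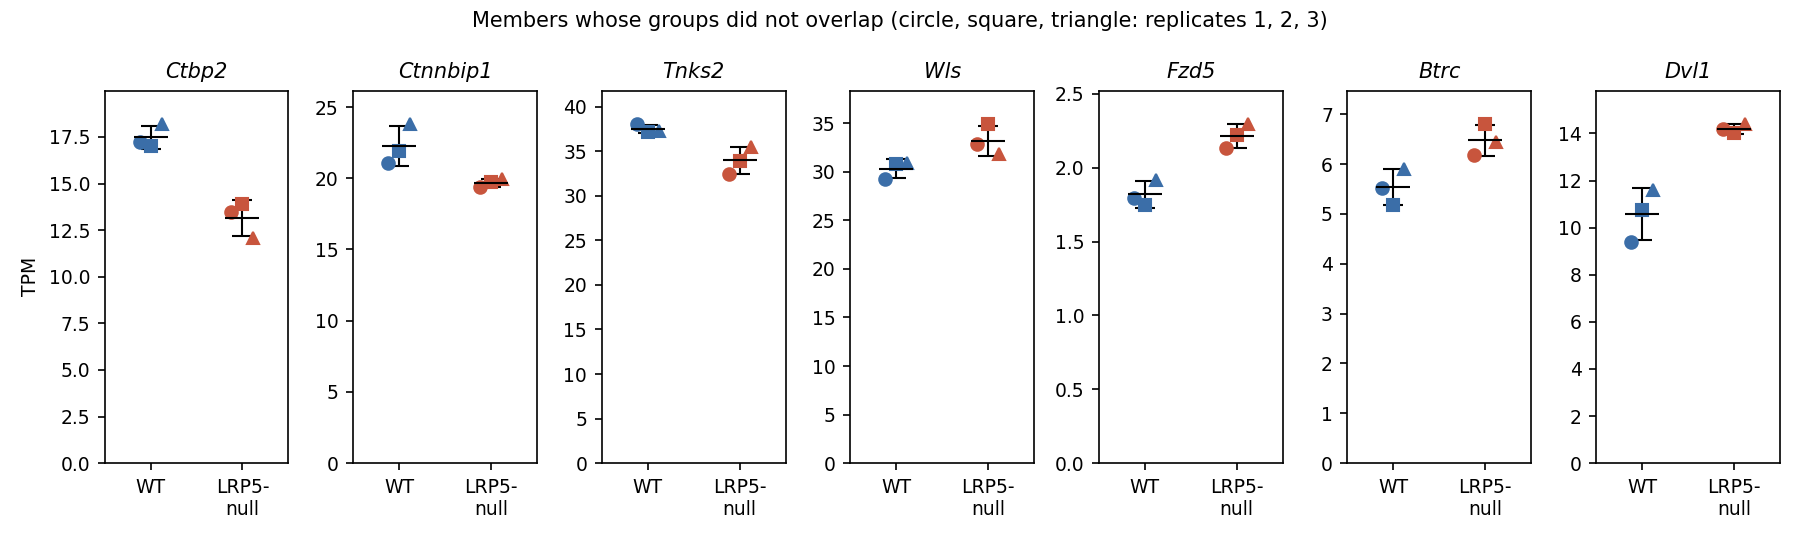
TPM (axes from 0) of the 7 members, among the 26 with a mean of at least 1 TPM, whose WT and LRP5-null libraries did not overlap, in order of log2 fold change. Points are libraries, with the mean as a horizontal bar and error bars of 1 SD (n = 3). Ctbp2, Ctnnbip1 and Tnks2 lie lower and Wls, Fzd5, Btrc and Dvl1 higher in the libraries labelled LRP5-null.

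Of the destruction complex, 4 members had 95% intervals that held 0 and stayed within 0.5 of it, unlike Btrc, whose interval of 0.0079 to 0.38 lay above 0. The log2 fold change was 0.02 for Gsk3a (95% interval −0.16 to 0.20), 0.04 for Axin1 (−0.17 to 0.26), −0.12 for Gsk3b (−0.29 to 0.06) and −0.10 for Csnk1a1 (−0.28 to 0.09). The interval was wide for Apc, at 0.08 (−0.43 to 0.58), which had the largest standard error of the members. Pygo2, at 0.00, had an interval of −0.40 to 0.40, so that a difference within it could not be seen. The sign of Gsk3b was the same in all alternatives, and that of Csnk1a1 turned only with GC and length trends removed. The signs for Axin1, Apc, Gsk3a and Pygo2 depended on the libraries compared, those of Gsk3a and Pygo2 also on the scaling, and against WT replicate 3 alone Gsk3a, Axin1, Apc and Pygo2 were all below 0.

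**Figure D3:**
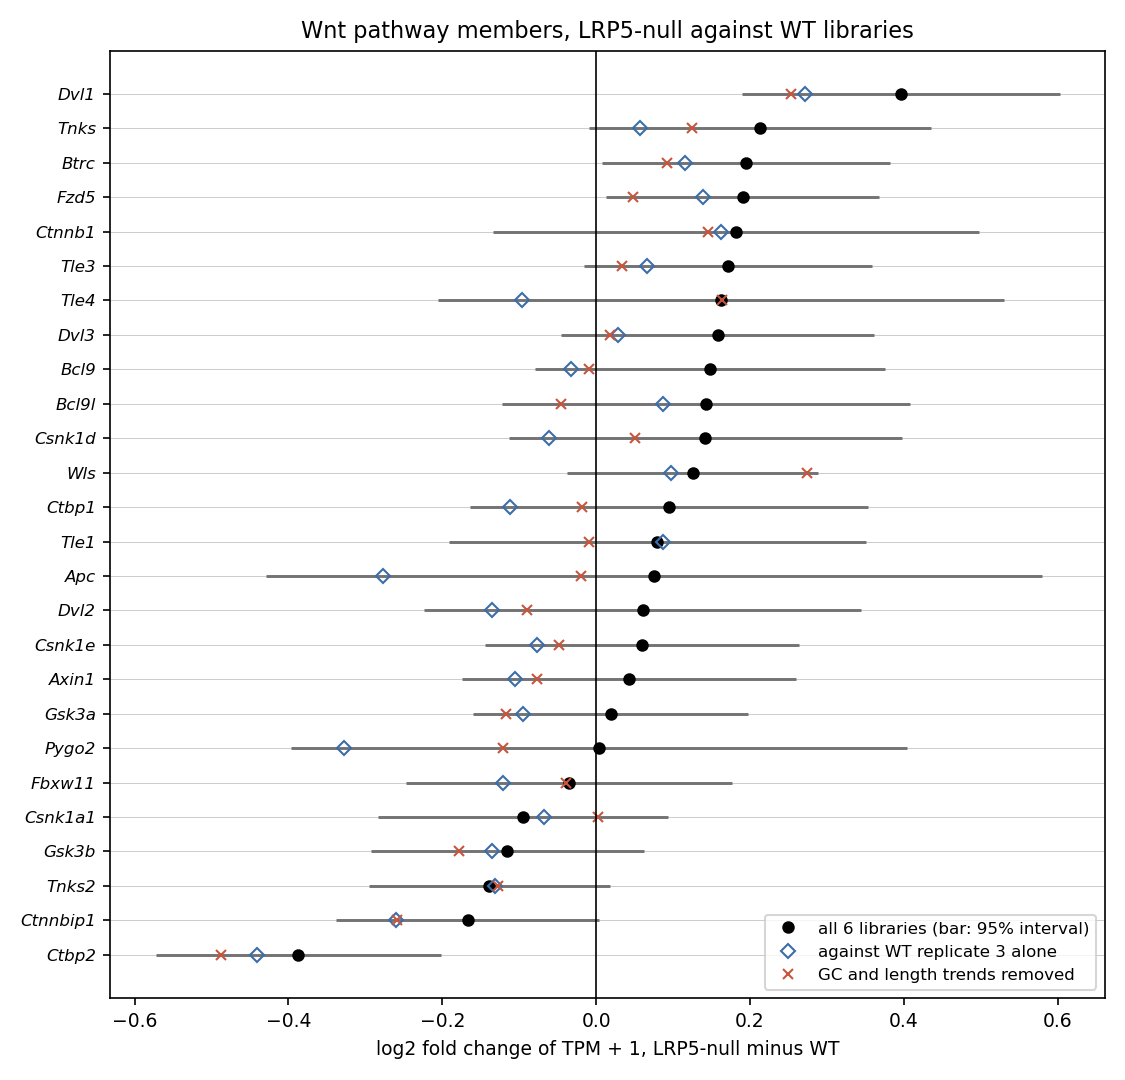
Log2 fold change of TPM + 1, LRP5-null minus WT, of the 26 members with a mean of at least 1 TPM. Black points are the fit to all 6 libraries with its 95% interval, open diamonds the comparison with WT replicate 3 alone and crosses the fit after trends with GC content and length were removed. The intervals of Dvl1, Btrc and Fzd5 lie above 0 and that of Ctbp2 below it, and for 10 members, Pygo2 and Apc among them, the diamond lies on the other side of 0 from the black point.

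The share of a paralog in the summed TPM of its family does not depend on how a library is scaled. A trend with GC content is not removed by such a share, and its part here was not tested. Ctbp2 made up 21.8% to 26.5% of Ctbp TPM in the WT libraries and 17.1% to 18.7% in those labelled LRP5-null. Its means were 23.7% ± 2.44 and 17.9% ± 0.775 (SD, n = 3 each), and WT replicate 3 was the nearest to the other group. Dvl1 made up 40.6% to 43.8% of Dvl TPM in WT and 44.9% to 47.9% under the LRP5-null label, at means of 41.8% ± 1.73 and 46.9% ± 1.74 (SD, n = 3 each). Tnks2 held 80.2% to 83.7% of tankyrase TPM in WT and 77.5% to 78.3% under the LRP5-null label. Fbxw11 held 87.1% to 89.3% of the β-TrCP pair in WT and 85.6% to 87.0% in the other group. The shares of these 4 paralogs did not overlap between the groups. Nor did those of Dvl3, at 32.4% to 33.1% in WT and 30.0% to 32.1% under the LRP5-null label. Those of Dvl2 overlapped (23.1% to 26.6% and 19.95% to 24.7%), as did all shares in the GSK3, CK1δ/ε, TLE and BCL9 families. How often shares of other paralogs do not overlap was not computed, and by level 29.7% of all genes tested did not overlap. The higher paralog of a family was the same in every library. With 3 libraries in each group, an exact two-sided permutation test of a share could not go below p = 0.1.

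**Figure D4:**
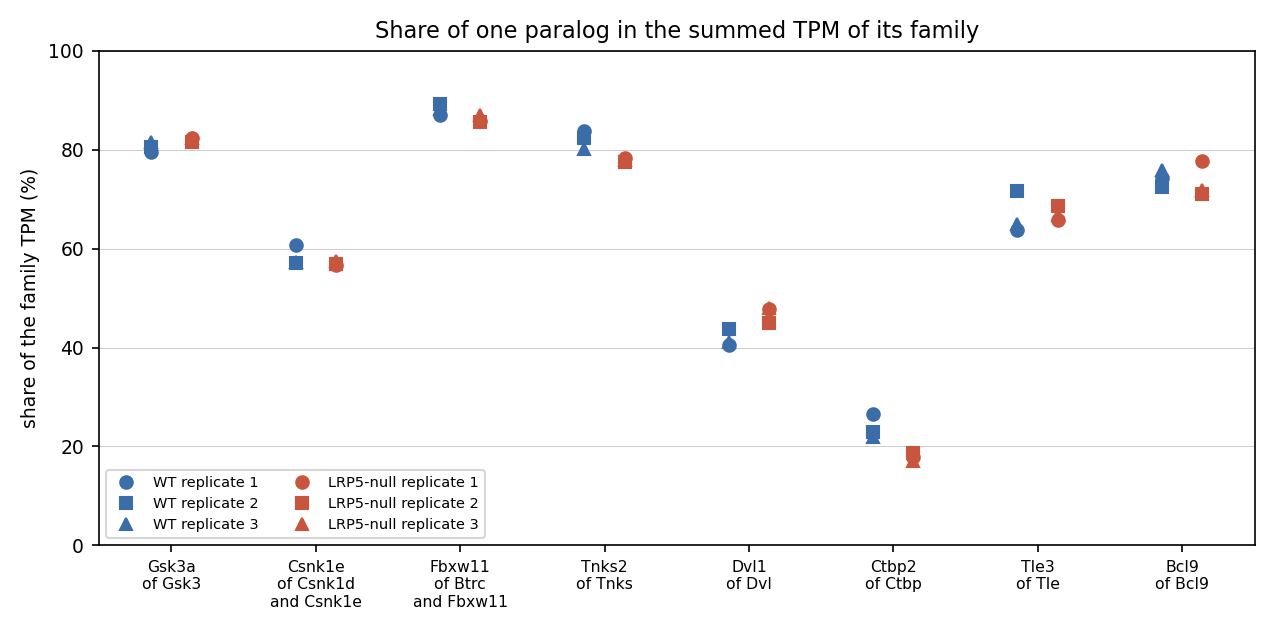
Share (%) of 1 named paralog in the summed TPM of its family, for each library, with WT in blue and LRP5-null in red and circle, square and triangle for replicates 1, 2 and 3. The colors separate for Fbxw11, Tnks2, Dvl1 and Ctbp2, most widely in percentage points for Ctbp2 and Dvl1 by their means, and overlap for Gsk3a, Csnk1e, Tle3 and Bcl9.

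Other genes of the pathway gave similar counts. Of all genes tested, 0.532% were called, and 14.4% were higher and 9.12% lower at an unadjusted p under 0.05. Of 19 other cytoplasmic regulators, 14 were tested and 0 called by limma at an adjusted p under 0.05, and 2 had an unadjusted p under 0.05, both lower. Siah1a, a ubiquitin ligase that acts on β-catenin independently of GSK3, was the one of smaller p, at 16.6, 16.5 and 15.3 TPM in WT and 13.3, 13.5 and 13.6 TPM in the libraries labelled LRP5-null (log2 fold change −0.25, limma adjusted p = 0.127). The other was Usp34, a deubiquitinase of Axin, at −0.20 (limma adjusted p = 0.192). Of 17 other nuclear regulators, 14 were tested and limma called 0, with 1 higher and 1 lower at an unadjusted p under 0.05. Tbl1xr1, which helps to recruit β-catenin to target genes, was 63.1, 59.8 and 47.9 TPM in WT and 28.4, 40.4 and 41.9 TPM in the libraries labelled LRP5-null (log2 fold change −0.62, standard error 0.166, limma adjusted p = 0.113). The higher one was Med12, a Mediator subunit, at 0.26 (limma adjusted p = 0.140). Usp34 and Med12 were named after their values had been seen.

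Of 5 genes of cell junctions, where β-catenin also binds cadherins, Ctnna1 and Jup were tested, limma called 0 and 0 had an unadjusted p under 0.05. Ctnna1, the partner of β-catenin there, was 19.7, 19.7 and 21.4 TPM in WT and 17.7, 18.6 and 19.9 TPM in the libraries labelled LRP5-null (log2 fold change −0.11, limma adjusted p = 0.438). Of 20 genes of the non-canonical branch, 8 were tested and limma called 0. At an unadjusted p under 0.05, Celsr3 was higher (14.4% of all genes) and Rhoa lower (9.12% of all genes). Celsr3, a planar polarity cadherin, was 9.34, 11.4 and 11.2 TPM in WT and 14.8, 13.7 and 14.4 TPM in the libraries labelled LRP5-null (log2 fold change 0.40, limma adjusted p = 0.0973).

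Transcripts of the pathway's target genes were mostly below 1 TPM. Of 16 genes commonly induced by TCF and β-catenin, 6 of them members, 9 had means below 0.1 TPM, among them Axin2, Nkd1, Znrf3 and Lgr5. Myc had a mean of 0.45 TPM. The 2 that passed 1 TPM were Ascl2, with a mean of 2.30 TPM and a log2 fold change of −0.04, and Cd44, an adhesion receptor abundant on leukocytes. Cd44 was 838, 777 and 806 TPM in WT and 654, 703 and 496 TPM in the libraries labelled LRP5-null, all lower (log2 fold change −0.40, standard error 0.126, limma adjusted p = 0.141). Cd44 alone holds most of the summed TPM of this list, and the 14 genes below 1 TPM were not tested.

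Markers of neutrophil maturation were counted in the same fit, in which 5752 of all 9775 genes were higher under the LRP5-null label and 4023 lower. Of 14 markers of immature neutrophils 13, all but Ngp, were higher, 8 of them at an unadjusted p under 0.05 (14.4% of all genes) and 0 called by limma at an adjusted p under 0.05, with a median log2 fold change of 0.24. Of 12 markers of mature neutrophils 10, all but Csf3r and Il1b, were lower, 7 at an unadjusted p under 0.05 (9.12% of all genes) and 1 (Cxcl2) called, with a median of −0.18. The groups did not overlap in 9 immature markers, all higher, and in 7 mature ones, all lower. Of all 9775 genes, 1703 were higher and 1202 lower without overlap. The summed TPM of the immature markers was 62930 to 67920 in WT and 64750 to 67700 under the LRP5-null label. Ngp, at 31331 to 38041 TPM over all libraries, was the largest part of this sum. The mature markers summed to 37670 to 41810 and 36310 to 37790 TPM. Eosinophil and basophil markers summed to 3.92 to 4.82 TPM in WT and 6.04 to 6.80 TPM under the LRP5-null label, and megakaryocyte markers to 3.74 to 5.38 and 5.75 to 6.65 TPM. Of the former, Prg2 differed most in TPM (1.02 and 2.79 TPM by group mean) and was called (limma adjusted p = 0.0341). Ccr3 (0.918 and 1.065 TPM) and Epx (0.0195 and 0.108 TPM) were also higher in each library labelled LRP5-null. Ms4a2 was lower in each of these libraries, and the ranges of Mcpt8, Cpa3 and Il5ra overlapped. Ccr3, Epx and Ms4a2 had means below 1 TPM and were not tested. Of the megakaryocyte markers, Ppbp was higher in each library labelled LRP5-null (0.734 and 1.14 TPM by group mean, not tested). The ranges of Gp9, Pf4, Gp1bb and Itga2b overlapped. The sums of monocyte and macrophage markers (103 to 117 and 109 to 127 TPM) and erythroid markers (55.8 to 62.7 and 49.3 to 60.6 TPM) overlapped, as did those of stroma and endothelium (4.11 to 4.89 and 4.77 to 5.25 TPM) and of stem and progenitor cells (8.10 to 9.08 and 8.85 to 10.2 TPM). The part of cell composition in the differences of Dvl1, Ctbp2 and the other members was not tested.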

How the data were processed

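RNA of bone marrow neutrophils was sequenced in 3 WT libraries and 3 labelled LRP5-null, grouped by the deposited labels. The authors aligned reads to mm9, name DESeq2 in their processing notes and deposited TPM per gene. How TPM were computed is not given in the sources used here, and the identifiers are of a later annotation. A deposited read summary holds counts of reads, percentages, a ratio of end coverage, a coverage variation score and insert sizes, of which counts, percentages and read lengths (94 bases, paired-end) were used. The labels name a Percoll gradient and an mRNA kit, while the methods name sorted CD11b+ Ly6G+ cells, single-end reads and a stranded kit for total RNA. As TPM holds no counts, limma 3.58.1 (R 4.3.3) was fitted to log2(TPM + 1) for the 9775 genes averaging 1 TPM or more, letting the prior variance follow the mean level, with p-values adjusted over all of them (Benjamini-Hochberg). The fit was also run on simulated data with noise drawn independently for each gene. Such data hold no difference between libraries that many genes share, so they cannot check the p-values for one.
All 40 members are named, in order of role. Those of at least 1 TPM have every library's value, and full statistics are given where p was under 0.05 or the groups did not overlap. Of each other pathway list the called genes, or else the gene of smallest p, are named. The members and the lists of other pathway genes and cell markers were chosen with earlier results of these data known.
Alternatives were a pseudocount of 0.1, no filter or a minimum of 5 TPM, median-ratio or quantile scaling, TPM rescaled without mitochondrial and the 20 most abundant genes, limma without trend or robust, each library left out, WT replicate 3 alone, a replicate block, the ribosomal share as covariate, and removal of GC and length trends (GENCODE M1 transcripts, 89.7% of genes). Positions are of NCBIM37, and promoters of RefSeq (GRCm38.p6). Other experiments of the study were not analysed here.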

Additional observations from a re-analysis of the deposited data

Results flagged for a closer look

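One measure outside the TPM table differed between the labels. In the read summary, intronic reads made up 8.60%, 7.78% and 9.0% of reads in the WT libraries and 10.9%, 11.2% and 10.6% in those labelled LRP5-null. The means were 8.46% ± 0.622 and 10.9% ± 0.305 (SD, n = 3 each), and the ranges did not overlap. The report's comparisons do not use this measure, and its part in the values of Dvl1, Ctbp2 and the other members was not tested.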

How the results depend on the processing

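All 26 expressed members stayed at or above 1 TPM in every library, and the depth behind single TPM values is unknown. The count of members with an adjusted p under 0.05 (limma) was 0, and 0 to 3 with a library left out: 3 without WT replicate 3 (Tnks 0.29, Dvl1 0.46 and Ctbp2 −0.36 on the log2 scale, when 1920 genes of 9775 were called in all) and 0 without any other. It was 2 (Ctbp2 and Ctnnbip1, of 430 genes in all) with GC and length trends removed, and 0 in the remaining alternatives. Members with an unadjusted p under 0.05 were 4, from 2 to 9 with a library left out and 7 (26.9%, against 26.3% of all genes) when TPM were rescaled without the most abundant genes. They were 2 (7.69%) without WT replicate 2 or LRP5-null replicate 3, against 15% and 15.4% of all genes, and 9 (34.6%) without WT replicate 3, against 38.4%. Members without overlap were 7, from 7 to 15 with a library left out: 15 (57.7%, against 56.1% of all genes) without WT replicate 3 and 11 (42.3%, against 38.1%) without LRP5-null replicate 1. They were 11 (42.3%, against 33.3%) when rescaled and 14 (53.8%, against 65.2%) against WT replicate 3 alone. The median log2 fold change of the members, 0.09, was −0.073 against WT replicate 3 alone, −0.023 with the ribosomal share as covariate and −0.014 with the trends removed. Over all genes, 52 calls became 3 with no filter, 29 at 5 TPM, 77 with median-ratio and 47 with quantile scaling, 96 when rescaled, 36 without a trend, 61 with robust shrinkage, 6 against WT replicate 3 alone, 6 with the covariate, and 18, 3, 2, 15 and 2 without WT replicates 1 and 2 and LRP5-null replicates 1 to 3. The replicate block gave 3 members (11.5%, against 23.5% of all genes) at an unadjusted p under 0.05. At an adjusted p under 0.05 (limma) it called 0 members and 4 genes in all. For libraries of the same replicate number, the correlations of deviations were 0.23, −0.01 and 0.13, and not every library correlated best with its own number. With 3 libraries in each group, these correlations cannot decide whether the numbers pair the libraries. The cause of these shifts was not tested.

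Of the 26 members, 12 kept the sign of their log2 fold change throughout, Dvl1, Ctbp2, Btrc, Fzd5, Wls, Tnks2 and Ctnnbip1 among them. The members named here are those whose groups did not overlap. For them, leaving out a library or comparing with WT replicate 3 alone could not turn the sign. How many of all genes kept their sign was not computed. Signs turned in the rest of the 26 members, at sizes of up to 0.33. Against WT replicate 3 alone the log2 fold change was −0.11 for Axin1, −0.28 for Apc, −0.095 for Gsk3a, −0.061 for Csnk1d, −0.077 for Csnk1e, −0.14 for Dvl2, −0.032 for Bcl9, −0.33 for Pygo2, −0.11 for Ctbp1 and −0.096 for Tle4. With the ribosomal share as covariate it was −0.065 for Axin1, −0.13 for Apc, −0.062 for Gsk3a, −0.0011 for Csnk1d, −0.038 for Csnk1e, −0.069 for Dvl2, −0.24 for Pygo2, −0.045 for Ctbp1 and −0.0079 for Tle4. With GC and length trends removed it was −0.077 for Axin1, −0.020 for Apc, −0.12 for Gsk3a, 0.0021 for Csnk1a1, −0.049 for Csnk1e, −0.090 for Dvl2, −0.0092 for Bcl9, −0.046 for Bcl9l, −0.12 for Pygo2, −0.019 for Ctbp1 and −0.0093 for Tle1. Median-ratio scaling gave −0.025 for Gsk3a and −0.039 for Pygo2, and quantile scaling −0.0099 for Dvl2, −0.0023 for Pygo2 and −0.0046 for Tle1. With each library left out in turn, the range was −0.13 to 0.25 for Apc, −0.0057 to 0.12 for Axin1, −0.020 to 0.20 for Ctbp1, −0.026 to 0.16 for Dvl2, −0.11 to 0.015 for Fbxw11, −0.023 to 0.076 for Gsk3a, −0.17 to 0.17 for Pygo2, −0.0049 to 0.17 for Tle1 and −0.027 to 0.29 for Tle4.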

Other observations

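Rac1, a small GTPase of the non-canonical branch, was chosen after its values had been seen, because it split the WT libraries. It was listed at 33.7 and 37.5 TPM in WT replicates 1 and 2, at 180 TPM in WT replicate 3 and at 146, 154 and 159 TPM in the libraries labelled LRP5-null. Its log2 fold change was 1.31 (standard error 0.568, limma adjusted p = 0.218). WT replicates 1 and 2 are also the libraries of low ribosomal share.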
